A study of Rattus norvegicus with 16 samples.

Results

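The 9 genes described here encode the hypoxia-inducible factor (HIF) alpha subunits Hif1a, Epas1 and Hif3a, the prolyl hydroxylases Egln1, Egln2 and Egln3, the asparaginyl hydroxylase Hif1an, the substrate receptor Vhl and the HIF-induced ankyrin repeat gene Ankrd37. They were taken as the probe sets whose platform annotation names 1 of these symbols alone, and where a gene had several sets, the set of highest mean level was used. All 9 genes were found among 14324 genes measured. 8 of them had 1 probe set each, and Egln1 had 2.

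Cells sense oxygen through the stability of HIF. In normal oxygen the EGLN enzymes hydroxylate prolines of the alpha subunits, VHL binds the hydroxylated protein, and the proteasome removes it, while HIF1AN hydroxylates an asparagine and blocks coactivator binding. When oxygen is low, these dioxygenases slow, the alpha subunit pairs with ARNT, and target genes are transcribed, among them Egln3 and Ankrd37 themselves. In the newborn retina this pathway controls the vascular growth factor Vegfa and so the spread of the superficial vessels.

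RNA of newborn rat retina was measured on 16 Affymetrix gene arrays, each hybridised with a pool of RNA that had been extracted from single rats. The rats were of the inbred Fischer strain F344, known as resistant to oxygen-induced retinopathy, or of the outbred Sprague Dawley (SD) strain, known as susceptible. Each strain was taken on post-natal days 5 and 6, from cyclic hyperoxia and from room air, which gives 8 groups of 2 arrays. Starting within 12 h of birth, the exposed litters and their mothers breathed 80% and 21% oxygen in alternating periods of 24 h. Controls of the same age stayed in room air, and the labels name no allele and no other agent in any group. The labels do not say which oxygen level came first. If it was 80%, day 5 would close a period at high oxygen and day 6 a period at 21%. The design text speaks of 3 rats from 2 litters for the pools without saying how they were divided, so the p-values given below measure the spread between these pools. Values are log2 expression after robust multi-array averaging (RMA).

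Retinal identity was borne out by the levels of Crx (mean 10.77), Nrl (9.91), Pax6 (11.03) and Rax (8.65), against a median of 5.45 to 5.52 for all probe sets of an array. Of the other cell types the dissection could hold, the pigment epithelium markers Rpe65 (4.26) and Best1 (4.18) and the 4 measured erythroid markers (4.04 to 4.75) lay below every array median, while the other pigment epithelium genes Rlbp1 (10.63), Ttr (8.98) and Tyrp1 (6.53) lay above it and Tyr (4.58) did not and the lens gene Cryba1 ranged from 5.27 to 7.7. No gene of the erythroid, pigment epithelium, lens or muscle lists passed the test for oxygen in any strain or on any day. Arrays of a group correlated at r of 0.987 to 0.996 across genes. In the least alike pair, F344 hyperoxia on day 6, a change over 2-fold separated 70 genes, and in each other pair 0 to 34.

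The promoters of Egln3 and Ankrd37 are shown first, because these were the members called for oxygen on both days over both strains, together with that of Egln1, a close relative of Egln3. They are the 250 bases before the RefSeq transcription start in the rat assembly GRCr8, 5′ to 3′ on the gene's strand. Capitals mark the HIF-binding core in its spellings ACGTG and GCGTG on either strand (CACGT and CACGC on the strand shown). Egln3 lies on the minus strand at chr6:77411016-77411265, Ankrd37 on the plus strand at chr16:53001257-53001506 and Egln1 on the minus strand at chr19:69804682-69804931.
Egln3: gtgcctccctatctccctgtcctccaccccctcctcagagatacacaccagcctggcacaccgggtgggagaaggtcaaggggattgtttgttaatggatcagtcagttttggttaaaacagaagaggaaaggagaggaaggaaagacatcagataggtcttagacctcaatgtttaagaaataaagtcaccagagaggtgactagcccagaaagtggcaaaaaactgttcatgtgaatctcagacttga
Ankrd37: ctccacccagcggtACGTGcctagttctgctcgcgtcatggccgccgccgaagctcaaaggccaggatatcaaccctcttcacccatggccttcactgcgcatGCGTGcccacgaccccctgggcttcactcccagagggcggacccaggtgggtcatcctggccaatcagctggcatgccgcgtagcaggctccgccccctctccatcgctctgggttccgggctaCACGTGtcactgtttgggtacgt
Egln1: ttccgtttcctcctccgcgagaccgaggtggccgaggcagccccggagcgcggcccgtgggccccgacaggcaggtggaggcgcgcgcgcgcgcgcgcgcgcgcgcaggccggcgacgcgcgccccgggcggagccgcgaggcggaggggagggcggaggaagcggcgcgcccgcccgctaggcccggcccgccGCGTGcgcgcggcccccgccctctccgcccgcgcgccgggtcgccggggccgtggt

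The window of Ankrd37 held ACGTG from base -236 to -232 and GCGTG from -147 to -143, and ACGTG on both strands within the palindrome CACGTG, which is also the E-box core, at -23 to -18. Egln1 held GCGTG once, from -56 to -52. The window of Egln3 held neither spelling, which says only that these letters are not in these 250 bases. Among the other members, Hif1a held ACGTG 3 times, of which a pair was the palindrome CACGTG, and the upstream one of the Hif3a promoters held GCGTG at 2 positions. The windows of Epas1, Egln2, Hif1an, Vhl and the other Hif3a promoter held none. Thus 4 of 9 members held either spelling in a window. Of 33469 windows of the same length in the RefSeq table, 36.7% did so (16.6% for ACGTG and 25.9% for GCGTG). GC content was 46.8% for Egln3, 64.4% for Ankrd37 and 85.2% for Egln1, against a median of 51.2%. A match is a description of the letters and not evidence of binding.

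Over both strains, cyclic hyperoxia had opposite effects on Egln3 on the 2 days. Within F344 its day 6 effect did not pass. The enzyme Egln3 encodes is the most strongly hypoxia-induced of the 3 prolyl hydroxylases. In room air its level was nearly the same everywhere, at 6.3 and 5.91 in F344 on day 5 (replicates 1 and 2), 5.93 and 6.04 in F344 on day 6, 6.28 and 6.07 in SD on day 5, and 6.02 and 6.24 in SD on day 6. On day 5 hyperoxia arrays it was 4.75 and 4.74 in F344 and 4.87 and 5.09 in SD. These 4 arrays were the lowest of the 16 and lay below the median of every array, so the size of folds against them is uncertain. On day 6 hyperoxia arrays it was 6.29 and 6.2 in F344 and 6.86 and 7.12 in SD. The SD arrays were the highest of all, clear of every other group, while the F344 pair overlapped the room air groups of day 5 and the room air group of SD on day 6.

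**Figure D1:**
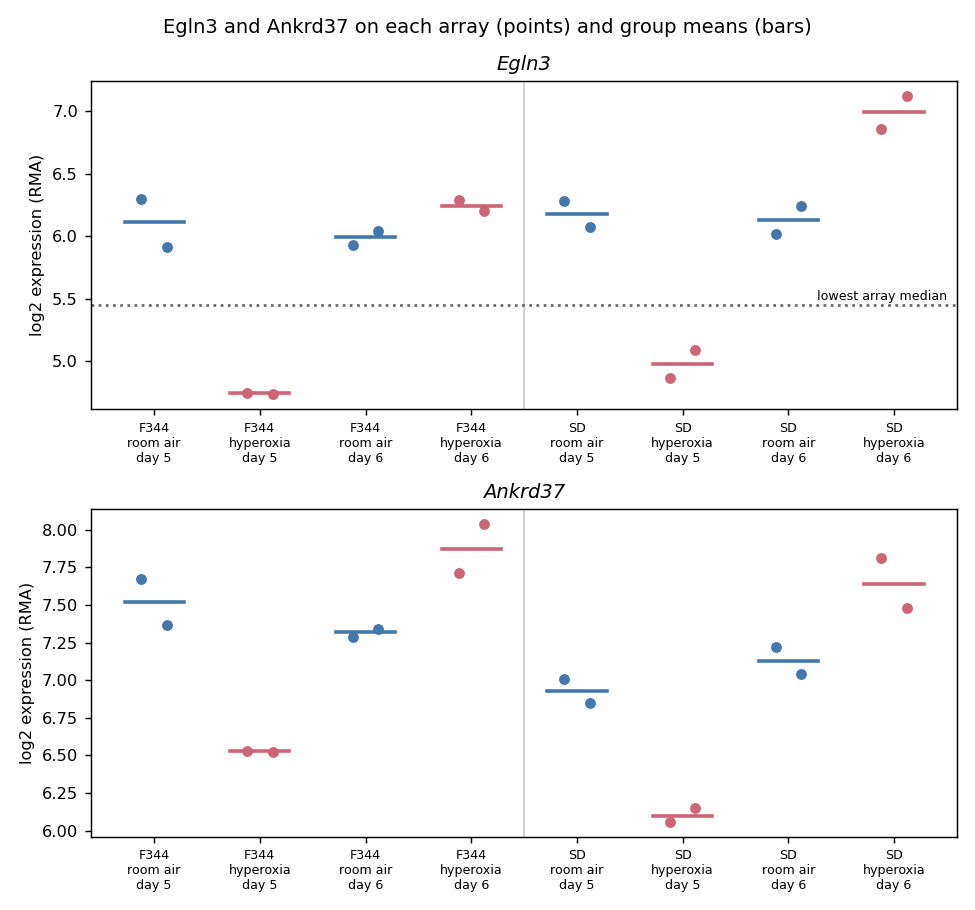
Log2 expression (vertical axis) of Egln3 and Ankrd37 on each of the 16 arrays (points) in the 8 groups of strain, exposure and day (horizontal axis), with bars at the mean of 2 arrays and blue for room air, red for cyclic hyperoxia. Egln3 lay between 5.91 and 6.3 on all room air arrays, at 4.74 to 5.09 under hyperoxia on day 5 and at 6.2 to 7.12 under hyperoxia on day 6, and the dotted line is the lowest median of an array (5.45).

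Genes were tested with limma on all arrays, and a gene is said to have passed, risen or fallen where its Benjamini-Hochberg adjusted p over all genes was under 0.05. The ± values given with log2 changes are limma's moderated standard errors (2 arrays in each group). On day 5, 2 of the 9 members fell in F344, where 0.126% of all genes fell, and 1 fell in SD, where 0.0628% did. Egln3 fell by an estimated 2.57-fold in F344 (log2 change −1.36 ± 0.15, adjusted p = 0.00133) and 2.29-fold in SD (−1.20 ± 0.15, adjusted p = 0.00386). Both sizes are uncertain because its day 5 hyperoxia values lay below every array median. Its call in F344 held with any 1 array left out. In SD it was lost without hyperoxia replicate 1 (−1.09, adjusted p = 0.223) or room air replicate 1 (−1.09, adjusted p = 0.0881). Averaged over the strains, 2 members and 0.209% of all genes fell, and Egln3 had the smallest p of all 14324 genes (−1.28 ± 0.10, adjusted p = 2.97e-05).

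On day 6 the direction turned. Egln3 rose 1.81-fold in SD (0.85 ± 0.15, adjusted p = 0.0125), the single member called there, where 2.23% of all genes rose. The call was lost without SD hyperoxia replicate 1 (0.98, adjusted p = 0.135) or replicate 2 (0.72, adjusted p = 0.0777), or without SD room air replicate 1 (0.75, adjusted p = 0.11). In F344 Egln3 was 0.26 ± 0.15 above room air and did not pass (adjusted p = 0.382), and by limma 0 of 9 members were called there against 1.19% of genes (3 members had an unadjusted p under 0.05). Over both strains it rose 1.47-fold (0.56 ± 0.10, adjusted p = 0.00899). The strain difference of the day 6 effect, SD minus F344, was 0.60 with a 95% interval of 0.16 to 1.04 and did not pass (adjusted p = 0.258).

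The change of the oxygen effect between the days, day 6 minus day 5, was tested directly. 2 members were called in each strain, both in the positive direction, as were 0.272% of all genes in F344 and 0.112% in SD. Over both strains the same 2 were called, beside 0.182% of all genes. For Egln3 it was 1.62 ± 0.21 in F344 (adjusted p = 0.00607), 2.05 ± 0.21 in SD (adjusted p = 0.000623) and 1.83 ± 0.15 over both (adjusted p = 1.39e-05), each of uncertain size because of the low day 5 values. The call in F344 was lost without replicate 1 of its day 6 room air pair (1.56, adjusted p = 0.0531). Between the days Egln3 rose within hyperoxia by an estimated 3.36-fold over both strains (1.75 ± 0.10, adjusted p = 3.22e-07), where 2 members and 2.1% of all genes rose. In room air it differed by −0.08 (95% interval −0.30 to 0.14). By strain, a split made after the values were seen, the rise within hyperoxia was an estimated 2.82-fold in F344 (1.5 ± 0.15, adjusted p = 0.000203) and 4.01-fold in SD (2.00 ± 0.15, adjusted p = 6.88e-06), where 0.272% and 0.586% of all genes rose. The difference between those rises did not pass (adjusted p = 1, 0% of genes called by limma and 496 at an unadjusted p under 0.05), and its size is not given because both start from day 5 values below the array medians.

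Egln3 was also the member called for a strain difference within hyperoxia. In the fit it was higher in SD than in F344 by 0.49 ± 0.10 over both days (adjusted p = 0.00846), 1 member called where 5.18% of all genes were higher in SD, but the size of this mean is open to the day 5 values, which lay below every array median in both strains. By day, again split afterwards, the difference did not pass on day 5 (adjusted p = 0.485, 1.28% of genes called), and it was 0.74 ± 0.15 on day 6, a 1.67-fold excess (adjusted p = 0.0141, 1.35% of genes higher in SD). On day 6 alone the call was lost without F344 hyperoxia replicate 2 (0.70, adjusted p = 0.0784) or SD hyperoxia replicate 1 (0.87, adjusted p = 0.0672) or 2 (0.61, adjusted p = 0.162). In room air the strains differed by 0.11 (95% interval −0.11 to 0.33).

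Ankrd37, a HIF target that encodes a small ankyrin repeat protein, was also below room air on day 5 and above it on day 6. In F344 on day 5 it was 7.67 and 7.37 in room air and 6.53 and 6.52 under hyperoxia. In SD on day 5 it was 7.01 and 6.85 in room air and 6.06 and 6.15 under hyperoxia. On day 6 it was 7.29 and 7.34 in F344 room air and 7.71 and 8.04 under hyperoxia, and 7.22 and 7.04 in SD room air and 7.81 and 7.48 under hyperoxia. In each strain and day the 2 exposures did not overlap, as was the case on day 5 for 40.8% of all genes in F344 and 46.2% in SD and on day 6 for 42.7% and 50%, with hyperoxia lower on day 5 and higher on day 6.

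In F344 on day 5 Ankrd37 fell 1.99-fold (−0.99 ± 0.15, adjusted p = 0.0134). The call was lost without F344 hyperoxia replicate 1 (−1, adjusted p = 0.114) or replicate 2 (−0.98, adjusted p = 0.214) or F344 room air replicate 1 (−0.84, adjusted p = 0.127). In SD it was −0.83 ± 0.15 and just missed the threshold (adjusted p = 0.0586), which it passed without either F344 hyperoxia array of day 6 (adjusted p = 0.0245) or without either F344 room air array of day 5 (adjusted p = 0.0442). Over both strains it fell 1.88-fold (−0.91 ± 0.10, adjusted p = 0.00038), a call kept with any 1 array left out. The strain difference of the day 5 effect was 0.16 with an interval of −0.28 to 0.60.

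On day 6 Ankrd37 was 0.56 ± 0.15 above room air in F344 (adjusted p = 0.0681) and 0.51 ± 0.15 in SD (adjusted p = 0.0705). In F344 it passed without F344 hyperoxia replicate 1 (0.73), a value resting on replicate 2 alone, the array of narrowest interquartile range (2.81). In SD it passed without either of the F344 hyperoxia arrays of that day. Over both strains it rose 1.45-fold (0.54 ± 0.10, adjusted p = 0.0107), 1 of 2 members that rose, as 4.01% of all genes did, and this was lost without SD hyperoxia replicate 1 (0.45, adjusted p = 0.0828). The change of its oxygen effect between the days was 1.55 ± 0.21 in F344 (adjusted p = 0.00607), 1.34 ± 0.21 in SD (adjusted p = 0.0119) and 1.45 ± 0.15 over both (adjusted p = 0.000142). In F344 it was lost without replicate 1 of the day 6 room air pair (1.52, adjusted p = 0.0531). In SD 5 single arrays ended the call, hyperoxia day 5 replicates 1 and 2, room air day 5 replicate 1, hyperoxia day 6 replicate 1 and room air day 6 replicate 2, at values of 1.18 to 1.38 and an adjusted p up to 0.123. Within hyperoxia Ankrd37 rose 2.72-fold from day 5 to day 6 over both strains (1.44 ± 0.10, adjusted p = 1.79e-06), and in room air it differed by 0.00 (95% interval −0.22 to 0.22).

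In room air Ankrd37 was lower in SD than in F344 by 0.39 ± 0.10 over both days (log2 change −0.39, adjusted p = 0.0288). That was 1 of 2 members called lower in SD, as were 5.33% of all genes. The call was lost without F344 room air replicate 1 of day 5 (−0.31, adjusted p = 0.0909) or replicates 1 and 2 of day 6 (−0.40 and −0.37, adjusted p = 0.0751 and 0.104), and without replicate 2 of SD room air on day 5 (−0.35, adjusted p = 0.11) or day 6 (−0.34, adjusted p = 0.097). It was lost as well after another quantile normalization (−0.35, adjusted p = 0.0622). Under hyperoxia it was lower in SD by 0.33 (log2 change −0.33, adjusted p = 0.0604), which passed without either F344 room air array of day 5 (−0.33). This difference also passed without F344 hyperoxia day 6 replicate 1 (−0.41), which leaves replicate 2, the array of narrowest interquartile range, alone in its group. By group means Ankrd37 ran from 6.1 in SD hyperoxia on day 5 to 7.87 in F344 hyperoxia on day 6. That highest group was not separated from SD hyperoxia on day 6 (7.64). Egln3 was highest in SD hyperoxia on day 6 (6.99). It was lowest under hyperoxia on day 5, at 4.75 in F344 and 4.98 in SD, both below the array medians.

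**Figure D2:**
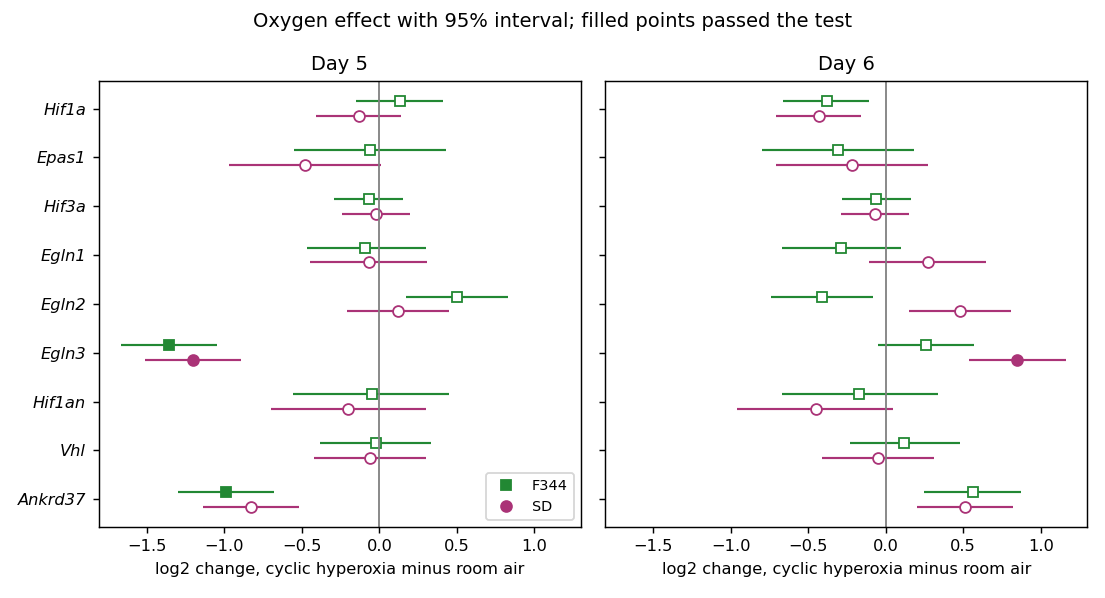
Log2 change of cyclic hyperoxia against room air (horizontal axis) for the 9 members (rows) on day 5 (left) and day 6 (right), F344 as green squares and SD as purple circles, with 95% intervals and filled symbols where the gene passed the test. Filled symbols are Egln3 in both strains and Ankrd37 in F344 on day 5, and Egln3 in SD (0.85) on day 6.

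The alpha subunits moved less. Hif1a, the broadly expressed subunit, was 11.26 and 11.15 in F344 room air and 11.41 and 11.27 under hyperoxia on day 5, and 11.37 and 11.59 against 11.3 and 11.39 in SD. On day 6 it was 11.37 and 11.36 in F344 room air and 11.16 and 10.8 under hyperoxia, and 11.51 and 11.54 against 11.01 and 11.17 in SD. The day 6 hyperoxia arrays lay below the room air arrays of that day in both strains. The exposures likewise did not overlap that day for 42.7% of all genes in F344 and 50% in SD. Hif1a fell on day 6 over both strains by 1.33-fold (−0.41 ± 0.09, adjusted p = 0.0181), 1 member that fell, as did 2.73% of all genes. In F344 alone (−0.38, adjusted p = 0.139) and in SD alone (−0.43, adjusted p = 0.0818) it did not pass. On day 5 the mean effect was 0.00 with an interval of −0.20 to 0.19.

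The Hif1a call of day 6 was lost without F344 hyperoxia replicate 2 (−0.32, adjusted p = 0.0576), F344 room air replicate 1 (−0.41, adjusted p = 0.0684) or 2 (−0.41, adjusted p = 0.0669), or SD hyperoxia replicate 1 (−0.37, adjusted p = 0.116). A fit of the 8 arrays of day 6 alone also lost it (adjusted p = 0.0603). Without F344 hyperoxia replicate 1 the F344 effect was −0.57 and passed, but it then rested on replicate 2 alone. Replicate 2 had the narrowest interquartile range of all arrays (2.81, against 2.98 to 3.19 on the others) and the lowest Hif1a value (10.8). Without either array of that group the SD effect passed (−0.43). The difference between the days, −0.41 over both strains, did not pass (adjusted p = 0.383). Between the days within hyperoxia it was −0.30 (adjusted p = 0.0753), which passed without F344 hyperoxia day 6 replicate 1 (−0.40), again with replicate 2 alone in its group. Because the array measures RNA, these values say nothing of the stability of the protein.

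Epas1, the alpha subunit prominent in endothelium and astrocytes, did not pass in any planned comparison. Under hyperoxia on day 5 it was 6.35 and 6.4 in F344 and 6.52 and 6.6 in SD, against 6.32 and 6.55 and 6.73 and 7.36 in room air. On day 6 it was 6.97 and 6.68 in F344 and 6.74 and 6.96 in SD under hyperoxia, against 7.1 and 7.17 and 6.64 and 7.51 in room air. SD room air replicate 2 was the higher of its pair on both days, and these were the widest gaps of any Epas1 pair. The effects over both strains were −0.27 (95% interval −0.62 to 0.07) on day 5 and −0.26 (−0.61 to 0.08) on day 6. Without SD room air day 6 replicate 1, Epas1 passed for the room air day difference (0.58, adjusted p = 0.0294) and strain difference (0.49, adjusted p = 0.0415), against 0.36 and 0.27 with all arrays. In F344 alone, a comparison added after the values were seen, the room air day difference was 0.70 (adjusted p = 0.0761), and it passed without either SD room air array of day 6 (adjusted p = 0.0205).

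Endothelial markers stood beside these values. Of 12 listed genes 10 were measured, and 8 or 9 of them had group means below every array median, Flt1 (mean 6.15) being the clearest above it. Their summed linear level was 272 to 275 in F344 and 281 to 282 in SD under hyperoxia on day 5, against 308 to 371 and 349 to 379 in room air. On day 6 it was 314 to 394 in F344 and 312 to 316 in SD under hyperoxia, against 375 to 379 and 382 to 392. In these bulk samples, fewer cells of a type and less RNA per cell cannot be told apart. Over both strains 2 of the 10 were called lower on day 5, where 0.209% of all genes were, and 3 on day 6, where 2.73% were, with a median of −0.26 and −0.20 against 0.009 and −0.007 for all genes. These counts were 1 to 3 on day 5 and 0 to 4 on day 6 with 1 array left out. On day 5 they were Flt1 (−0.45, adjusted p = 0.0194) and Tek, and on day 6 Tek, Tie1 and Emcn. The means of Tek (4.71), Tie1 (4.87) and Emcn (4.66) lay below every array median, so the size of their changes cannot be read. On day 5 the endothelial sum and Egln3 were both lower under hyperoxia in each strain. On day 6 the sums of the exposures overlapped in F344. In SD that day the sum was lower under hyperoxia and Egln3 was higher. Pericyte markers (5 of 5 measured, 0 called by limma on either day over both strains) summed to 165 to 168 in F344 and 146 to 197 in SD under hyperoxia on day 5, against 223 to 446 and 269 to 278, and on day 6 to 194 to 285 and 188 to 227 against 243 to 247 and 304 to 332. Rgs5 alone of the 5 lay above the array medians. The part of vascular cells in the day 5 and day 6 values of Egln3 and Ankrd37 was not tested.

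Hif3a, whose splice forms can inhibit the pathway, lay between 4.29 and 4.66 on all 16 arrays, below every array median, so neither its level nor a change in it can be read from this probe set. Its oxygen effects were −0.07 to −0.02 in the 4 strain and day comparisons.

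Among the hydroxylases other than Egln3, Egln1, the main HIF prolyl hydroxylase of most cells, had a pair of probe sets that disagreed. The set with the higher mean ranged from 7.18 to 8. Its oxygen effect was −0.08 (95% interval −0.35 to 0.19) over both strains on day 5 and −0.01 (−0.28 to 0.26) on day 6, with −0.29 in F344 and 0.27 in SD, and it passed nowhere. The other set ranged from 6.72 to 7.68. In SD on day 6 it rose by 0.77 ± 0.16 (adjusted p = 0.0229), with −0.12 in F344, and from day 5 to day 6 within hyperoxia it rose by 0.45 over both strains (adjusted p = 0.0332), against 0.37 (adjusted p = 0.124) for the first set. In room air on day 6 it was lower in SD than in F344 (−0.70 ± 0.16, adjusted p = 0.0117), against −0.25 (adjusted p = 0.438) for the first set. Both sets carry the same accession in the annotation, and which better reports Egln1 was not tested.

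Egln2, the prolyl hydroxylase best known as oestrogen-induced, was called for a strain and a day difference in room air and for no effect of oxygen. In F344 room air it was 7.27 and 7.65 on day 5 and 8.33 and 8.29 on day 6, the highest arrays of the series. In SD room air it was 7.48 and 7.15 on day 5 and 7.5 and 7.11 on day 6. Under hyperoxia it was 8 and 7.93 on day 5 and 7.86 and 7.94 on day 6 in F344, and 7.45 and 7.41 and then 7.88 and 7.69 in SD. Over both days in room air it was lower in SD by 1.49-fold (−0.58 ± 0.11, adjusted p = 0.00445), a call kept with any 1 array left out. By day, split after the values were seen, the difference was −0.15 on day 5 (adjusted p = 0.8, 0.824% of genes called) and −1 ± 0.15 on day 6 (adjusted p = 0.00121, 6.79% of genes lower in SD).

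From day 5 to day 6 in room air, Egln2 passed narrowly over both strains (0.42 ± 0.11, adjusted p = 0.049), 1 member that rose, as did 1.29% of all genes. That call was lost in 12 of 16 fits with an array left out and in 4 other settings (adjusted p up to 0.24), the replicate block among them (adjusted p = 0.0545). Within strains the change was 0.85 ± 0.15 in F344 (adjusted p = 0.00545, 4.82% of genes rose) and 0.00 in SD (95% interval −0.33 to 0.33, 0% called, with 722 genes at an unadjusted p under 0.05 by limma). The difference between these, −0.85 ± 0.22, did not pass (adjusted p = 0.0975, 0.0559% of genes called). The F344 change was lost without room air day 5 replicate 1 (0.66, adjusted p = 0.0745) or day 6 replicate 2 (0.87, adjusted p = 0.0608). The summed linear level of the 3 of 5 photoreceptor markers measured was 3030 to 3183 on day 5 and 4205 to 4531 on day 6 in F344 room air, and 3503 to 3864 and 3958 to 4785 in SD. The part of maturing photoreceptors in the Egln2 values was not tested.

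The oxygen effect on Egln2 had different signs by group and passed in none, at 0.50 in F344 and 0.12 in SD on day 5 (adjusted p = 0.357 and 0.856) and at −0.41 and 0.48 on day 6 (adjusted p = 0.181 and 0.103). Its strain difference on day 6 was 0.89 with an interval of 0.42 to 1.35 (adjusted p = 0.116). Its difference between days in F344 was −0.91 ± 0.22 (adjusted p = 0.0621), which passed without F344 room air day 5 replicate 2 (−1.10, adjusted p = 0.0375) or without either SD room air array of day 6 (−0.91, adjusted p = 0.0422). For the strain differences of the oxygen effect, 0 members were called by limma on either day, against 0% of genes on day 5 and 0.0559% on day 6. At an unadjusted p under 0.05 there were 0 members on day 5 and 3 on day 6.

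Hif1an, which encodes the asparaginyl hydroxylase, ranged from 7.73 to 8.73 and Vhl, the recognition subunit of the ubiquitin ligase, from 7.33 to 8.05. For Hif1an the effects over both strains were −0.13 on day 5 and −0.31 on day 6 (adjusted p = 0.822 and 0.279), and its widest pair, SD with −0.45 on day 6, came from room air arrays at 8.73 and 8.09 and hyperoxia arrays at 7.95 and 7.96. For Vhl the effects were −0.04 and 0.04 (adjusted p = 0.927 and 0.887), with group means that spanned 0.29. Neither gene passed in any planned comparison, and in the order of their 8 group means no group was separated from its neighbour.

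**Figure D3:**
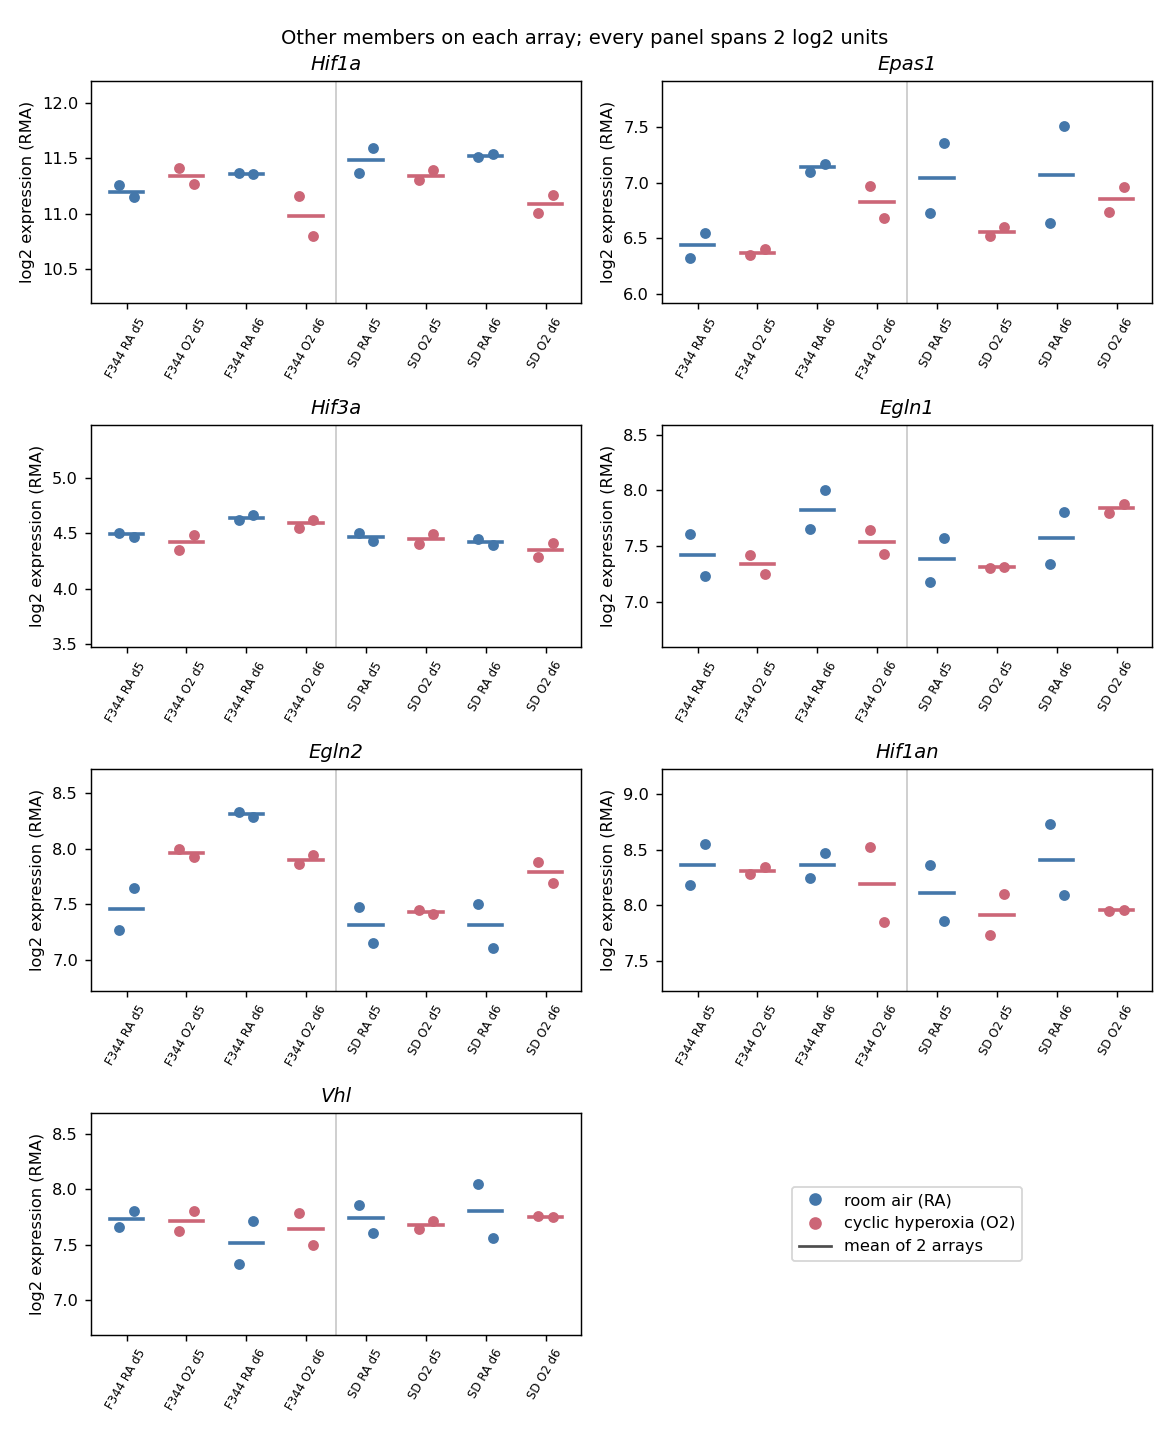
Log2 expression (vertical axis, 2 units in every panel) of the 7 other members on each array (points) in the 8 groups (horizontal axis; RA room air, O2 cyclic hyperoxia, d5 and d6 the days), with bars at the mean of 2 arrays. Hif1a sits lowest in the hyperoxia groups of day 6 (10.98 and 11.09), Egln2 highest in F344 room air on day 6 (8.31), and Hif3a stays between 4.29 and 4.66.

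The order of the group means is given as a description, and groups are called separated where their 2 arrays do not overlap. Between the exposures of a strain and day this held for 40.8% to 50% of all genes. Its share between neighbouring groups was not computed. For Egln3 the day 5 hyperoxia groups of F344 and SD (4.75 and 4.98) were separated from all others, and no order is read between them because both lay below the array medians, the 4 room air groups (5.99 to 6.18) and F344 hyperoxia on day 6 (6.24) were not separated from their neighbours, and SD hyperoxia on day 6 (6.99) stood alone. For Ankrd37 every neighbouring pair of groups was separated up to F344 room air on day 5 (7.52), after which the day 6 hyperoxia groups followed without separation. For Egln2, F344 room air on day 6 (8.31) was separated from the rest, and a gap lay between the 4 lowest groups (7.31 to 7.46) and the others. For Hif1a the hyperoxia groups of day 6 overlapped F344 room air on day 5 (11.2) in the order. Gaps lay above that room air group and above F344 room air on day 6 (11.36). For Epas1 the only gap lay above SD hyperoxia on day 5 (6.56). For Egln1 no neighbouring groups were separated.

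The partners and regulators of HIF were measured for 18 of 19 listed genes, a list chosen with earlier results of these data known, as were the others below. On day 5 over both strains 0 of the 18 were called by limma, and their median change was 0.03 against 0.009 for all genes. Rbx1 (0.34, adjusted p = 0.212) and Pkm (−0.21, adjusted p = 0.375) had the smallest p. On day 6 Rbx1, the RING subunit of the VHL ligase, rose (0.68 ± 0.10, adjusted p = 0.00325), and the HIF partner Arnt2 (−0.38 ± 0.09, adjusted p = 0.0193) and Cited2, which competes with HIF for its coactivator (−0.42 ± 0.12, adjusted p = 0.0463) fell. These are 1 of 18 that rose, beside 4.01% of all genes, and 2 that fell, beside 2.73%, which is near the background. The list's median on day 6 was −0.06 against −0.007. Rbx1 was also called in SD alone (0.81 ± 0.14, adjusted p = 0.0125), where 2.23% of all genes rose. On day 6 1 to 2 of the 18 rose and 0 to 4 fell with 1 array left out. The common partner Arnt, named after its values were seen, was at −0.26 ± 0.08 on day 6 and did not pass (adjusted p = 0.0665).

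Other enzymes that use oxygen in the same type of reaction were measured for 19 of 28. On day 5 over both strains 3 fell and 0 rose, where 0.209% of all genes fell, all of them collagen-modifying hydroxylases: P4ha1 (−1 ± 0.13, adjusted p = 0.00142), Plod2 (−0.62 ± 0.10, adjusted p = 0.0121) and P4ha2 (−0.60 ± 0.10, adjusted p = 0.0199). The median of the 19 was −0.14. On day 6, P4ha2 (0.45 ± 0.10, adjusted p = 0.0206) and the lysyl hydroxylase family member Jmjd6 (0.39 ± 0.08, adjusted p = 0.0125) rose, beside 4.01% of all genes, and the RNA demethylase Fto fell (−0.49 ± 0.14, adjusted p = 0.0438), beside 2.73%, with a median of −0.05. Leaving out 1 array gave 1 to 4 that fell on day 5, and 0 to 2 that rose and 0 to 3 that fell on day 6. In single strains P4ha1 fell in F344 on day 5 (−1.10, adjusted p = 0.0217), where 0.126% of all genes fell, and P4ha2 rose in SD on day 6 (0.74, adjusted p = 0.0187), where 2.23% rose. These single-strain calls also ended when 1 array was left out, with 0 to 1 called lower in F344 on day 5 and 0 to 2 called higher in SD on day 6. No dioxygenase was called in F344 on day 5 without hyperoxia replicate 2 or either room air array of that group, or without either SD hyperoxia array of day 5 or day 6. None was called in SD on day 6 without either SD hyperoxia array or room air replicate 1 of that day. P4ha1 and P4ha2 were the 2 of 19 whose oxygen effect changed between the days (1.11 and 1.05, adjusted p = 0.0137 and 0.00269), beside 0.182% of all genes in that direction. The P4ha2 mean in F344 hyperoxia on day 5 (5.26) lay below every array median, so the size of its day 5 and between-day changes is uncertain.

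Of 31 listed HIF target genes outside the members, 30 were measured. Over both strains 8 fell and 0 rose on day 5, where 0.209% of all genes fell, with a median of −0.29. On day 6 9 rose and 0 fell, where 4.01% of all genes rose, with a median of 0.26. With 1 array left out, 6 to 10 fell on day 5 and 4 to 10 rose on day 6. The lowest count on day 6 came without F344 room air replicate 1 or SD hyperoxia replicate 1 of that day. By strain, 7 fell in F344 and 6 in SD on day 5, where 0.126% and 0.0628% of all genes fell. On day 6, 3 rose in F344, where 1.19% of all genes were called in either direction, and 5 rose in SD, where 2.23% did. Leaving out 1 array gave 2 to 7 in F344 and 0 to 6 in SD on day 5, and 0 to 4 and 0 to 8 on day 6. The F344 count of day 5 was 2 without either hyperoxia array and 4 without either room air array of that group. The SD count of day 5 was 0 without replicate 1 of either exposure and 3 without hyperoxia replicate 2. On day 6 the F344 count was 0 without hyperoxia replicate 2 or either room air array. The SD count was 0 without either SD hyperoxia array or room air replicate 1, 2 without room air replicate 2, and 8 without either F344 hyperoxia array. The oxygen effect of 9 changed between the days in the positive direction, as did that of 0.182% of all genes, with a median of 0.57 for the list against −0.012 for all genes. The smallest p values were those of the lactate exporter Slc16a3 (2.08 ± 0.23, adjusted p = 0.000255), the mitochondrial adenylate kinase Ak4 (1.83 ± 0.15, adjusted p = 1.39e-05), Pdk1, which restrains pyruvate oxidation (1.25 ± 0.11, adjusted p = 4.03e-05), Pfkfb3, which stimulates glycolysis (1.34 ± 0.14, adjusted p = 0.000142), and Bnip3 (1.21 ± 0.12, adjusted p = 0.000142). Vegfa fell on day 5 (−0.92 ± 0.09, adjusted p = 0.00013) and was at 0.17 on day 6 (adjusted p = 0.284), and Higd1a was at 0.02 on day 5 (adjusted p = 0.951) and rose on day 6 (0.78 ± 0.09, adjusted p = 0.00216). The difference between days passed for both, at 1.09 (adjusted p = 0.000843) and 0.76 (adjusted p = 0.0139). On day 6 Fam162a (0.72, adjusted p = 0.00325), Ak4 (0.64, adjusted p = 0.00514) and Pdk1 (0.39, adjusted p = 0.0128) also rose. The vasodilator gene Adm passed as well (adjusted p = 0.0102), with both arrays below every array median in all groups but SD hyperoxia on day 6, so no size is given.

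**Figure D4:**
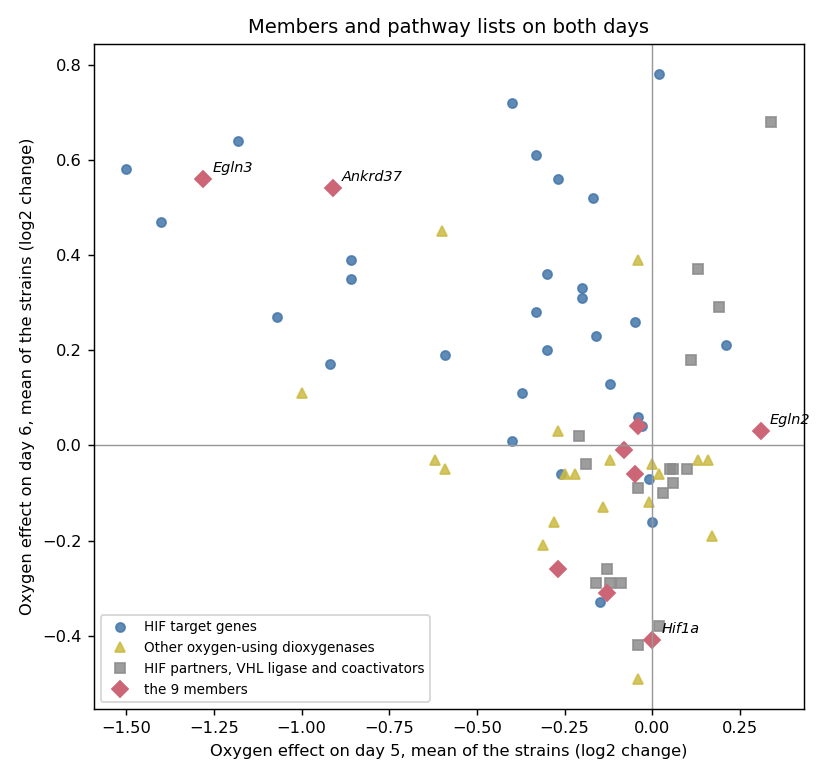
Oxygen effect (log2 change of cyclic hyperoxia against room air, mean of the strains) on day 5 (horizontal axis) and day 6 (vertical axis) for the 9 members (red diamonds), HIF targets (blue circles), other dioxygenases (yellow triangles) and HIF partners and regulators (grey squares). Egln3 (−1.28 and 0.56) and Ankrd37 (−0.91 and 0.54) lie at upper left among HIF targets, and Hif1a (0.00 and −0.41) lies below zero on the day 6 axis alone.

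Genes with the most similar profile to a called member were found by Pearson's r over the 8 group means, among 5103 other genes whose group means spanned at least 0.5. The points share arrays and normalization, and r is given as a description. For Egln3 they were P4ha2 (r = 0.975), the lactate dehydrogenase gene Ldha (0.97), the mitophagy gene Bnip3 (0.963), the glucose transporter Slc2a3 (0.933) and the hormone gene Stc1 (0.933). In most groups the mean of Stc1 lay below every array median, down to 4.69 in F344 hyperoxia on day 5, so its likeness is uncertain. P4ha2, like Egln3, was highest in SD hyperoxia on day 6, at 6.63. Its mean in F344 hyperoxia on day 5 (5.26) also lay below every array median. For Ankrd37 they were Slc16a3 (0.971), the glycolytic gene Tpi1 (0.962), Igfbp2 (0.953), Klhdc1 (0.947) and Pdk1 (0.945). Egln3 and Ankrd37 themselves had an r of 0.831.

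Hif1a was most like the iron-regulated aconitase Aco1 (0.956), the 2-oxoglutarate dehydrogenase subunit Ogdh (0.95), Snd1 (0.948), Crebzf (0.94) and Fbln5 (0.935). All group means of Fbln5 (4.81 to 5.37) lay below every array median, so its profile cannot be read. Aco1 was lowest in the hyperoxia groups of day 6, at 8.19 in F344 and 8.33 in SD, as Hif1a was. Egln2 was most like Npdc1 (0.996), Pkdcc (0.985), Lemd2 (0.977), Zfp777 (0.975) and B3gat3 (0.975). Npdc1 stood at 7.96 in F344 room air on day 6 and at 6.91 and 6.94 in SD room air on days 5 and 6, the same ends of the order that Egln2 had.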

How the data were processed

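The authors deposited log2 values for 27342 probe sets on 16 arrays, made with Partek 6.4 and RMA per the submitters' processing notes. RMA brings the distributions of the arrays close to each other, which hides a shift shared by most genes. They were not identical here. F344 hyperoxia day 6 replicate 2 had the narrowest interquartile range (2.81, against 2.98 to 3.19 on the other arrays) and the highest median (5.52). Scanner files were not analysed here.

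Gene names came from the platform annotation, with symbols updated by Entrez identifier from RefSeq (assembly GRCr8; 15067 of 15097 single-symbol sets). The set with the highest mean was kept for each gene. Group means were fitted with limma 3.58.1 in R 4.3.3 to all 16 arrays (8 residual and 7.41 prior degrees of freedom), with 15 planned contrasts and 10 added after the values were seen. The test was checked on simulated data for the day 5 effect over both strains alone. Noise there was independent between arrays, so shared litters and the other comparisons were not checked. The number of arrays limits precision.

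Named genes are the 9 members, up to 5 called genes (or the 2 smallest p) of each list, and the 5 most similar profiles of each called member. Members and lists were chosen with earlier results of these data known. Alternatives were another scaling (median centring, repeated quantile normalization), a filter on dim genes, every probe set tested alone, limma-trend, single-day fits, the replicate number as a block, each array left out, both F344 hyperoxia arrays of day 6 left out, and the other Egln1 probe set. Promoter windows of all 9 members were found by gene identifier in the RefSeq table. Some listed marker genes were not analysed here.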

Additional observations from a re-analysis of the deposited data

Results flagged for a closer look

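Egln3 and Ankrd37 stood out because their oxygen effects differed between the days by a direct test, limma's contrast of the day 6 effect minus the day 5 effect. For Egln3 the difference was 1.62 in F344, 2.05 in SD and 1.83 over both strains. These sizes are uncertain because its day 5 hyperoxia values lay below every array median. For Ankrd37 it was 1.55 in F344, 1.34 in SD and 1.45 over both strains. With 24 h periods the days would close opposite oxygen levels, and the labels do not state which level closed which day.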

How the results depend on the processing

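No called member result changed direction among the 135 planned member results, while small uncalled ones, such as the Epas1 effect in SD on day 6, changed sign with 1 array left out. Of their fits with 1 array left out, 2103 kept their side of the threshold and 57 did not, and of the fits under other settings 929 did and 10 did not. With 1 array left out, a lone array is assumed to vary like the other groups. The number of members called over both strains on day 5, and between the days over both strains, was 2 in all fits. With 1 array left out, it ranged from 1 to 2 in F344 and from 0 to 2 in SD on day 5. On day 6 it ranged from 0 to 2 in F344, from 0 to 3 in SD and from 1 to 3 over both strains. The day difference of the oxygen effect gave 0 to 3 in F344 and 1 to 2 in SD. Strain differences gave 1 to 3 in room air and 1 to 2 under hyperoxia, and day differences 0 to 1 in room air and 2 to 3 under hyperoxia. In SD on day 5 the count was 2 in a fit of the 8 arrays of day 5 and 2 without both F344 hyperoxia arrays of day 6, an alternative chosen after seeing the data. Without those arrays it was 3 in SD on day 6. The room air strain count was 1 after repeated quantile normalization. The room air day count was 0 with median centring, with every probe set tested on its own, with limma-trend and with the replicate block. The labels do not say whether replicate numbers pair the arrays, and the deviations of same-numbered arrays do not settle it. They correlated at −0.287 to 0.519 over the 28 pairs of groups, 8 of them over 0.1. Between the exposures of a strain the correlation was 0.193 in F344 and −0.17 in SD on day 5, and −0.219 and −0.0117 on day 6. The block moved the room air day call of Egln2 alone among the planned member results. Among those added later, it brought the Epas1 room air day difference in F344 to the threshold (0.70, adjusted p = 0.05 after rounding), and that call passed. Counts over all genes moved more. On day 6 in F344 they were 170 in the full fit, 111 with every probe set, 71 with limma-trend and 0 with the arrays of day 6 alone (2522 genes at an unadjusted p under 0.05 in the full fit), and in SD they were 400, 81 with the arrays of that day alone and 994 without both F344 hyperoxia arrays. Over both strains on day 6 they were 966 and 396 with that day's arrays, and on day 5 they were 30 and 54 without the F344 hyperoxia arrays of day 6. On day 5 they were 18 in F344, 8 with the arrays of day 5 alone and 12 without dim genes, and 9 in SD, 15 without those arrays. For the strain difference on day 6 they were 8, and 4 with quantile normalization, 5 without dim genes, 14 with every probe set, 3 with limma-trend, 5 with the block and 0 with that day's arrays (1641 at an unadjusted p under 0.05 in the full fit). With 1 array left out they moved widely, in F344 on day 6 from 0 without hyperoxia replicate 2 to 1621 without replicate 1 of the same pair, and over both strains that day from 53 without SD hyperoxia replicate 1 to 2829 without F344 hyperoxia replicate 1. For the day difference in F344 they were 146 and between 58 and 87 with quantile normalization, every probe set, limma-trend or the block. The causes were not tested.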
